A study of Mus musculus with 15 samples.

Results

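The 9 genes described here, *Samsn1*, *Bank1*, *Lat2*, *Ptpn22*, *Camkk1*, *Arhgef18*, *Il17ra*, *Car15* and *Cisd3*, were chosen because the EZH2 inhibitor GSK343 altered their transcript level differently in activated B cells and in plasmablasts. They were taken from the 28 genes, of 11299 tested and 21669 in the deposited table, whose difference between the GSK343 effect in plasmablasts and that in activated B cells passed an adjusted p of 0.05 in a limma fit, which is 0.248% of the genes tested. All 9 passed the filter on low values. *Bank1* and *Lat2*, adaptors of antigen receptor signalling, stood lower with GSK343 in plasmablasts, at 0.401 and 0.634 times the DMSO mean, against 0.960 and 1.09 times in activated B cells. *Samsn1*, also an adaptor, stood higher with GSK343 in plasmablasts, at 1.73 times the DMSO mean. *Camkk1*, a calcium-dependent kinase, and *Car15*, a carbonic anhydrase, stood higher with GSK343 in activated B cells, at 1.94 and 1.69 times. The genes were chosen by the GSK343 effects and their difference, so these are given as a description, with no test.

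RNA sequencing was done on B cells of female C57BL/6J mice aged 6 to 9 weeks, described as wild type. Naive B cells (nB) were CD43- splenic cells that were not cultured. CD43- cells were also cultured for 3 days with the bacterial component LPS and the cytokines IL2 and IL5, together with GSK343 or its solvent DMSO, and were then sorted: B220+GL7+CD138- cells are the activated B cells (actB), and CD138+ cells the plasmablasts (Pb). Each of the 5 groups held 3 libraries. The stimulation label of the Pb GSK343 libraries names Il6, whereas the labels of the other cultured groups, the treatment protocol and the study's own methods name Il5 for both sorted types. If that 1 label holds, the cytokine and the drug cannot be told apart in Pb or in the difference between the cell types. The study calls the libraries of a cell type biological replicates, and the labels do not say whether these came from separate mice or cultures, so p-values measure the spread between these libraries.

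EZH2 is the enzyme that places the repressive trimethyl mark on lysine 27 of histone H3, and GSK343 blocks its catalytic activity. A B cell that binds antigen passes the signal from its receptor through kinases, membrane and cytoplasmic adaptors and calcium release, and phosphatases and inhibitory adaptors damp that signal. During differentiation into antibody-secreting plasmablasts, cells shut down much of the B cell programme, including many components of this cascade.

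Library totals ran from 19421830 to 26307413 reads, so that 3 reads, the level below which a gene is not told from 0, corresponded to 0.114 to 0.154 reads per 1000000 reads (RPM, counting error only). The first and second nB libraries differed by less than the sampling noise (chi-square per degree of freedom 0.00958, against at least 3.58 for any other pair of one group), and were counted as 1 sample, leaving 14 libraries and n = 2 for nB. The second library of each cultured group stood apart: pairs with it differed by a chi-square per degree of freedom of 7.64 to 29.7, and the first and the third libraries by 3.58 to 6.07. The sorted types carried their defining transcripts: the summed level of 6 B cell genes was 1866 to 1940 RPKM (RPM per kilobase of exon) in nB, 970.4 to 1135 in actB with DMSO and 203.7 to 234.6 in Pb with DMSO, and that of 6 plasmablast genes was 214.6 to 231.2, 484.9 to 522.3 and 3083 to 3234. The 10 myeloid markers summed to 195.6 to 240.7 RPKM in nB, to 4.18 to 5.47 in actB with DMSO, to 8.34 to 14.2 in actB with GSK343 and to at most 1.29 in Pb, with *S100a8*, *S100a9* and *Elane* at 0 reads in the cultured libraries. *Lyz2* led this sum in nB, and in actB it was almost all *Itgam*, at 4.27 RPKM with DMSO and 9.95 with GSK343. The 9 T and NK cell markers summed to 30.4 to 34.5 in nB and at most 1.78 elsewhere. The part of these cells in any result below was not tested.

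**Figure D1:**
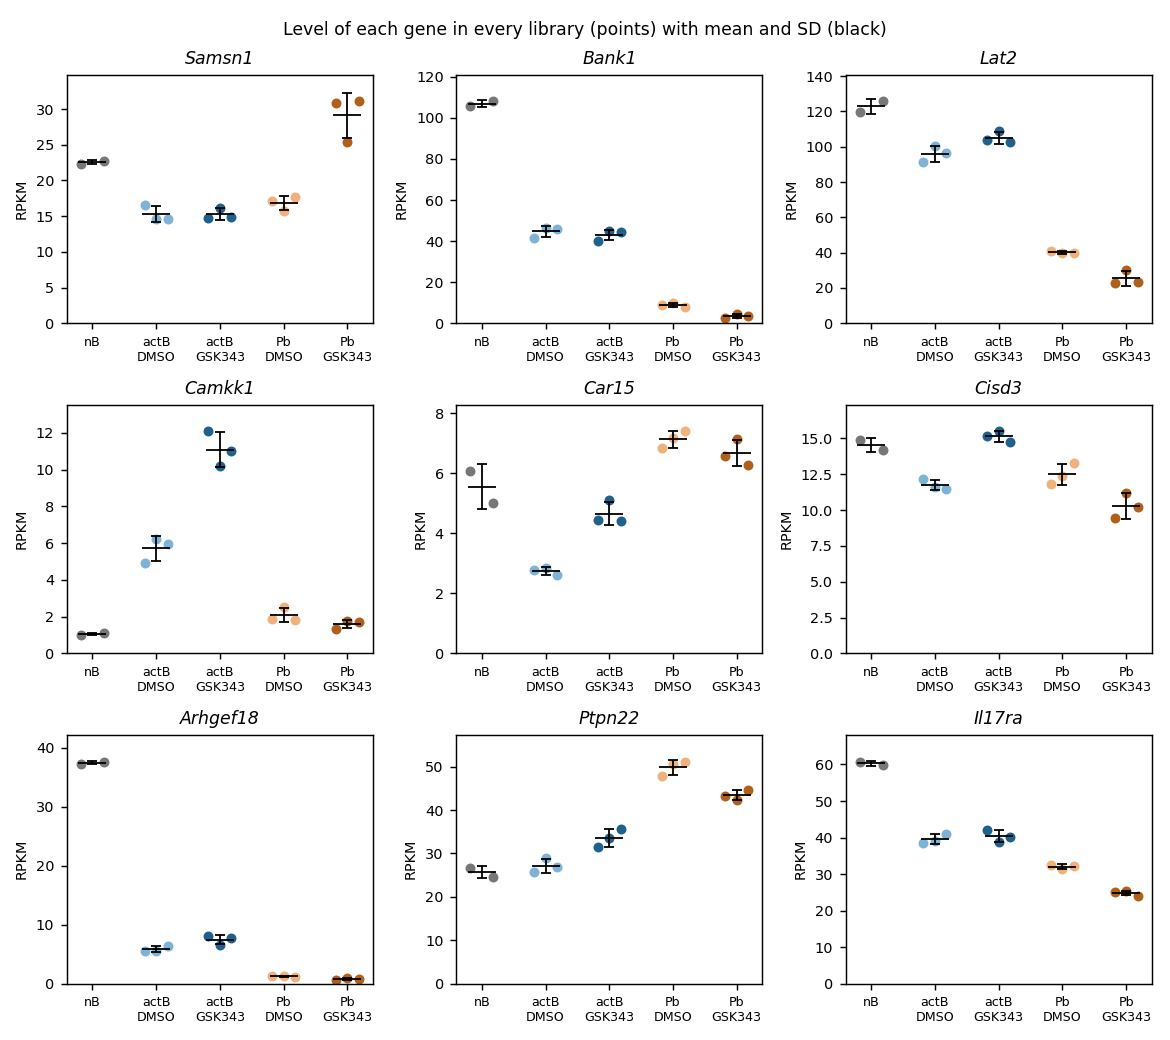
Level of the 9 genes in RPKM (y axis, linear, starting at 0) in each library (points) of the 5 groups (x axis), with the group mean and SD in black; nB has 2 points because its first and second libraries were counted as 1. The mean of *Bank1* was 106.9 RPKM in nB and 3.56 in Pb with GSK343, whereas *Samsn1* was highest in Pb with GSK343, at 29.1.

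*Samsn1* encodes an SH3 and SAM domain adaptor that restrains B cell activation, and it lies on the minus strand of mm9 at chr16:75859038-76022515. Its level was 22.3 and 22.8 RPKM in nB, 16.6, 14.6 and 14.6 in actB with DMSO, and 14.7, 16.2 and 14.9 in actB with GSK343. In Pb it was 17.1, 15.8 and 17.6 RPKM with DMSO and 30.8, 25.4 and 31.1 with GSK343. The Pb GSK343 libraries lay above every other library of the series, nB included. The actB GSK343, actB DMSO and Pb DMSO groups, in this order of levels, overlapped their neighbours among each other, and nB lay above them. The GSK343 effect was 0.00028 (SE 0.082) in actB and 0.78 (SE 0.082) in Pb on the log2 scale, a difference of 0.78 (SE 0.12). *Samsn1* was the only one of the 9 genes whose effect in Pb was above that in actB. In the mm9 annotation the transcript Gm15555 lies on the opposite strand within an intron of *Samsn1* and shares no exon with it.

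*Bank1* encodes a B cell scaffold that links the antigen receptor's kinases to calcium mobilisation (mm9, minus strand, chr3:135716327-135989030). It had 105.7 and 108.1 RPKM in nB, 41.6, 46.6 and 46.1 in actB with DMSO, and 40.1, 44.7 and 44.2 in actB with GSK343. Pb libraries held 8.72, 9.96 and 7.97 RPKM with DMSO and 2.66, 4.49 and 3.53 with GSK343. Both actB groups overlapped, and each Pb GSK343 library was below each Pb DMSO library. The mean with GSK343 was 0.401 times that with DMSO in Pb and 0.960 times in actB, and the log2 effects were -1.28 and -0.06 (SE 0.14 each), a difference of -1.23 (SE 0.20). In Pb the first library pair showed -1.62, and the second and the third -1.11 and -1.12.

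*Lat2* (also called NTAL or LAB) is a transmembrane adaptor that is phosphorylated after antigen receptor engagement (mm9, minus strand, chr5:135076138-135090893). Its level was 119.8 and 125.8 RPKM in nB, 91.3, 100.5 and 96.4 in actB with DMSO, and 103.6, 108.9 and 102.6 in actB with GSK343. Pb had 40.8, 40.0 and 39.6 RPKM with DMSO and 22.7, 30.2 and 23.4 with GSK343. GSK343 libraries lay above those of DMSO in actB and below them in Pb, with no overlap in either. The log2 effect was 0.13 (SE 0.086) in actB and -0.66 (SE 0.086) in Pb. The summed level of the 6 B cell genes moved in the same direction as *Bank1* and *Lat2* in Pb, with 127.3 to 171.9 RPKM with GSK343 against 203.7 to 234.6 with DMSO. In actB its ranges overlapped, at 920.2 to 1052 against 970.4 to 1135. The summed level of the 6 plasmablast genes was higher in actB with GSK343, without overlap (549.6 to 669.2 RPKM against 484.9 to 522.3), and in Pb their sums overlapped (3151 to 3417 against 3083 to 3234). *Jchain* and *Xbp1* led the plasmablast sum in Pb, and it hides opposite changes. With GSK343 in Pb, *Sdc1* rose from 29.7 to 55.3 RPKM (limma adjusted p = 0.000575). *Irf4* fell there from 372 to 313 RPKM (limma adjusted p = 0.0225), and the other plasmablast genes were not called. The part of either sum in the values of *Bank1*, *Lat2*, or of *Ptpn22* and *Car15*, which stood higher in actB with GSK343 and in Pb than in actB, was not tested, and in bulk samples fewer cells of a type and less RNA per cell cannot be told apart.

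Sequence upstream of the transcription start is shown for *Samsn1* and *Bank1*, the genes with the largest positive and negative effects in Pb among the 9, and for *Camkk1*, which had the largest effect in actB. The sequences are those of RefSeq on GRCm38.p6, a later build than that of the deposited table, and cover the 250 bases before the start, 5′ to 3′ on the gene's strand. Of the 9 genes, 7 matched an entry, with 10 promoters, and *Lat2* and *Il17ra* did not. Capitals mark the ETS-IRF composite letters GGAANNGAA, bound by PU.1 or SPIB with IRF4 or IRF8, and the E-box CACCTG, bound by E proteins, on either strand, so that a match on the other strand appears as its reverse complement. The *Samsn1* window is chr16:75909267-75909516, minus strand, that of *Bank1* chr3:136326067-136326316, minus strand, and that of *Camkk1* chr11:73018738-73018987, plus strand. In mm9 *Samsn1* has 6 annotated transcripts, and its span there reaches 76022515, beyond this window. Although the builds differ, the window may precede the start of only some *Samsn1* transcripts.
Samsn1: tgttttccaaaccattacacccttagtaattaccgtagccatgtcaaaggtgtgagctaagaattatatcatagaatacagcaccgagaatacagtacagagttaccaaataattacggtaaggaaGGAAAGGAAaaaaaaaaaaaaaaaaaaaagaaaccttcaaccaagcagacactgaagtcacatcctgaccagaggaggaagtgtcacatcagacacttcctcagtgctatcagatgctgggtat
Bank1: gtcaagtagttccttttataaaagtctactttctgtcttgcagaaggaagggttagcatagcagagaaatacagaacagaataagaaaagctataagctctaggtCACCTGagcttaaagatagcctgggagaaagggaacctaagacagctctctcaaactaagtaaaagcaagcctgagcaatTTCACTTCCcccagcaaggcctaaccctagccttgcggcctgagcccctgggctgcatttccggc
Camkk1: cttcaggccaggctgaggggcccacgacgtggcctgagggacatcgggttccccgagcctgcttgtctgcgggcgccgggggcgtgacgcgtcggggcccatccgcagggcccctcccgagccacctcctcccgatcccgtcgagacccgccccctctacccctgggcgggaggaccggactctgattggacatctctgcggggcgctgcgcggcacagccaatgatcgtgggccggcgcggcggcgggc
Both strands of each window were searched. The composite was present in 3 of the 10 promoters (*Samsn1*, *Bank1* and the downstream promoter of *Ptpn22*), against 6.99% of 32851 RefSeq promoters of the same length, and the *Samsn1* match adjoins a run of A. CACCTG was present in 3 of 10 (*Bank1*, *Arhgef18* and *Cisd3*) against 17.2%. The Blimp-1 core GTGAAAG and the AP-1 letters TGANTCA, present in 3.57% and 6.75% of promoters, were not in these 10 windows. CG dinucleotides numbered 29 in the *Camkk1* window, 2 in that of *Bank1* and 3 in that of *Samsn1*, with a median of 6 over all promoters. These matches describe the letters only.

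*Ptpn22*, on the plus strand of mm9 at chr3:103663718-103716170, encodes a tyrosine phosphatase that limits antigen receptor signalling in lymphocytes. It was read at 26.7 and 24.7 RPKM in nB, 25.8, 28.9 and 26.9 in actB with DMSO, and 31.5, 33.6 and 35.7 in actB with GSK343. The Pb values were 47.8, 50.5 and 51.2 RPKM with DMSO and 43.3, 42.3 and 44.7 with GSK343. GSK343 went with higher libraries in actB and lower ones in Pb, without overlap, and the nB and actB DMSO libraries overlapped. The log2 effects of 0.30 and -0.20 (SE 0.059 each) gave a difference of -0.50 (SE 0.083). Gm15472, on the same strand, and the pseudogene Gm15602 lie within *Ptpn22* and share no exon with it.

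*Camkk1* encodes a calcium and calmodulin-dependent kinase that phosphorylates CaM kinases (mm9, plus strand, chr11:72832510-72855575). In nB it was close to the filter of 1 RPKM, at 1.02 and 1.09 RPKM (81 and 86 reads). Activated B cells held 4.93, 6.25 and 5.98 RPKM with DMSO and 12.1, 10.2 and 10.99 with GSK343. Plasmablasts held 1.88, 2.55 and 1.84 with DMSO and 1.33, 1.75 and 1.73 with GSK343. All 5 groups were apart from each other, with actB GSK343 the highest and nB the lowest. The actB mean was 1.94 times higher with GSK343, the log2 effects were 0.93 in actB and -0.33 in Pb (SE 0.13 each), and the difference was -1.26 (SE 0.19), within its error of that of *Bank1*. In actB the effect ran from 0.68 in the second pair to 1.25 in the first.

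*Arhgef18* encodes a guanine nucleotide exchange factor, a protein that activates small GTPases (mm9, plus strand, chr8:3393006-3456601). It was 37.3 and 37.6 RPKM in nB, 5.62, 5.47 and 6.41 in actB with DMSO, and 8.13, 6.56 and 7.73 in actB with GSK343. In Pb it was 1.24, 1.37 and 1.21 with DMSO and 0.70, 0.91 and 0.77 with GSK343, with 167 to 311 reads behind each Pb value over 11121 bases of exon. The Pb GSK343 levels were the lowest among the 9 genes. No group overlapped another. Its log2 effect was 0.34 in actB and -0.55 in Pb (SE 0.099 each), a difference of -0.89 (SE 0.14).

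*Il17ra*, the signalling chain shared by receptors of the IL17 cytokines, lies on the plus strand of mm9 at chr6:120413215-120433745. Its levels were 60.8 and 59.8 RPKM in nB, 38.4, 39.2 and 41.0 in actB with DMSO, and 42.0, 38.9 and 40.3 in actB with GSK343. In Pb they were 32.5, 31.3 and 32.3 with DMSO and 24.98, 25.3 and 24.1 with GSK343. The actB groups overlapped and the Pb groups did not. It had the narrowest difference of the 9, -0.40 (SE 0.061), from effects of 0.03 and -0.37 (SE 0.043 each).

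The last genes are enzymes and a metal-cluster protein outside receptor signalling. *Car15* encodes a membrane-anchored carbonic anhydrase (mm9, minus strand, chr16:17835369-17838457) and was 6.09 and 5.02 RPKM in nB, 2.79, 2.85 and 2.61 in actB with DMSO, and 4.44, 5.10 and 4.43 in actB with GSK343. Its Pb libraries held 6.84, 7.17 and 7.39 RPKM with DMSO and 6.58, 7.15 and 6.29 with GSK343. Activated cells with GSK343 overlapped nB, and the Pb groups overlapped each other. The effects were 0.71 and -0.09 (SE 0.084 each), with 70 to 170 reads behind each library's value. Exons of the protein-coding Gm20518 overlap *Car15* on the same strand, and reads of the pair cannot be separated. *Cisd3*, a mitochondrial iron-sulphur protein (mm9, plus strand, chr11:97547140-97549935), was 14.9 and 14.2 RPKM in nB, 12.1, 11.6 and 11.5 in actB with DMSO, and 15.1, 15.5 and 14.7 in actB with GSK343. In Pb it was 11.8, 12.4 and 13.3 with DMSO and 9.43, 11.2 and 10.2 with GSK343. GSK343 libraries were above DMSO in actB and below it in Pb, without overlap, and the actB DMSO and Pb DMSO groups overlapped. The *Cisd3* effects were 0.36 and -0.28 (SE 0.065 each).

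**Figure D2:**
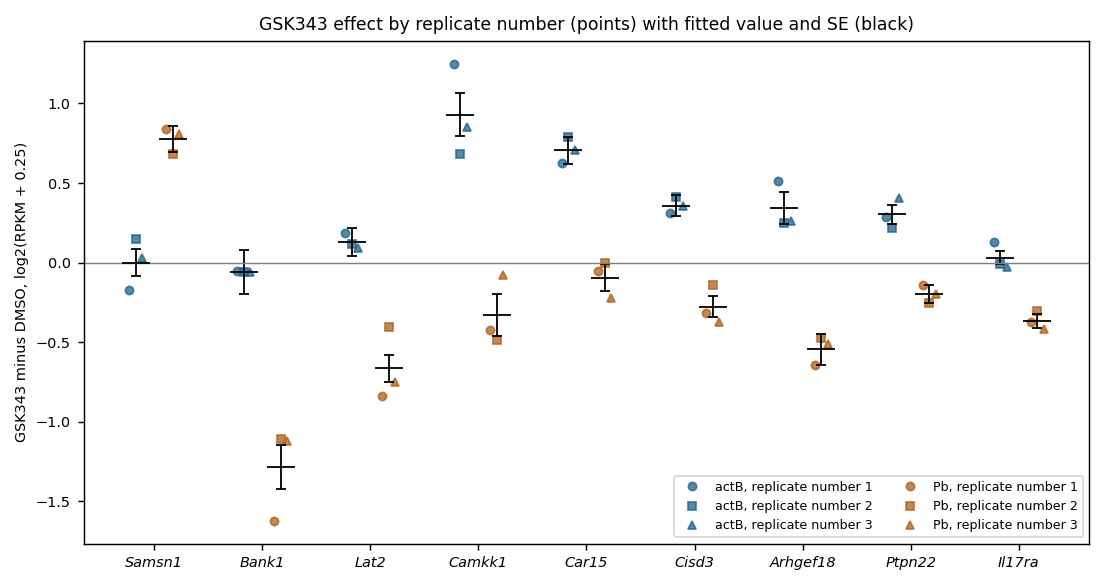
GSK343 effect on each gene (x axis) as the difference of log2(RPKM + 0.25) between the GSK343 and DMSO libraries of the same replicate number (y axis, points, blue for actB and orange for Pb), with the fitted effect and its SE in black. The 3 *Bank1* pairs in Pb sit between -1.62 and -1.11, and the 3 *Camkk1* pairs in actB between 0.68 and 1.25.

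Within the set, the sign of the difference was shared by 8 genes, in which the effect in Pb was below that in actB. The GSK343 libraries lay wholly apart from the DMSO libraries for 6 of the 9 genes in actB (all above) and for 8 of 9 in Pb (7 below and *Samsn1* above). Among all genes tested, the GSK343 libraries lay wholly above the DMSO libraries for 18.3% and wholly below for 7.52% in actB, and for 18.8% and 15.3% in Pb, and nothing is read from the members' counts because these effects chose them. The exceptions were *Samsn1*, *Bank1* and *Il17ra* in actB and *Car15* in Pb. In the cell type where a gene had its larger effect, that effect was smallest in the second library pair for 7 of the 9 genes, and in the first for *Car15* and *Cisd3*, as the plot of effects by replicate number shows. Over all genes tested, 8.2% were called higher and 2.16% lower with GSK343 in actB, and 7.9% and 5% in Pb. At the threshold of the rule, *D5Ertd605e* was the gene just inside, with effects of -0.06 in actB and 0.95 in Pb, and *Pik3cg*, a PI3 kinase catalytic subunit, the gene just outside, with 0.66 and 0.11. Among the 28 genes, the GSK343 effect in Pb was above that in actB for 11 and below it for 17. The 9 hold 1 of the former and 8 of the latter. For this difference of effects, 1017 of the 11299 genes had an unadjusted limma p under 0.05. The number of genes called depended on the libraries and the fit: it was 83 with a replicate block, 146 without the second library of every cultured group, and 0 to 58 when 1 library was left out. It was 0 without the first or the third actB DMSO library, or without the third library of actB GSK343, Pb DMSO or Pb GSK343, and 58 without the second Pb GSK343 library.

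How the genes moved along the differentiation sequence was not used to choose them. The stage comparisons took the mean of the DMSO and GSK343 groups within actB and within Pb. At equal group sizes the errors of these contrasts are uncorrelated with that of the rule's contrast. They still share its group means, libraries and residual spread. Averaged in this way, *Samsn1*, *Car15* and *Ptpn22* rose from actB to Pb and the other 6 fell, against 30.3% of all genes called higher and 48.2% lower. Most genes thus passed this comparison, and the count for the 9 genes cannot be read as special to them. *Arhgef18* fell 5.43-fold (log2 -2.44, SE 0.070, adjusted p = 8.34e-12), *Bank1* 7.56-fold (log2 -2.92, SE 0.098, adjusted p = 3.29e-11), *Camkk1* 3.97-fold and *Lat2* 3.14-fold. *Il17ra* fell 1.41-fold. *Car15* rose 1.86-fold (adjusted p = 2.01e-08), *Ptpn22* 1.54-fold and *Samsn1* 1.44-fold. *Cisd3* fell 1.17-fold (log2 -0.23, adjusted p = 0.000488), a call that was lost when the libraries were quantile normalized (adjusted p = 0.072) or scaled to a common median (adjusted p = 0.0592). The median of all genes was -0.13 in this comparison. The arms were unlike for *Samsn1* and *Cisd3*. With DMSO alone *Samsn1* was 15.3 RPKM in actB and 16.8 in Pb, with overlapping libraries (log2 0.14), against 15.3 and 29.1 with GSK343, so its averaged rise was carried by the Pb GSK343 libraries. *Cisd3* was slightly higher in Pb with DMSO, 12.5 against 11.7 RPKM with overlapping libraries (log2 0.09), and lower with GSK343, 10.3 against 15.1. The other 7 genes moved in the same direction in both arms, with libraries that did not overlap. These values within an arm are correlated with the contrast that chose the genes and carry no test.

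Relative to naive cells, the largest changes were those of *Arhgef18* and *Camkk1* in actB and of *Arhgef18* and *Bank1* in Pb. From nB to actB, again averaged over the treatments, *Arhgef18* fell 5.52-fold (log2 -2.46, SE 0.099, adjusted p = 1.76e-10), *Bank1* 2.43-fold, *Il17ra* and *Car15* 1.51-fold each, and *Samsn1* 1.47-fold, and *Lat2* fell by 0.29 on the log2 scale (adjusted p = 0.00772). *Camkk1* rose 6.29-fold (log2 2.65, SE 0.13, adjusted p = 1.64e-09) and *Ptpn22* 1.17-fold. *Cisd3* had a log2 difference of -0.12 (adjusted p = 0.1) and was called lower under quantile normalization, median scaling and edgeR. This mean joined unlike arms, 11.7 RPKM with DMSO, below both nB samples (14.5), and 15.1 with GSK343, overlapping them. *Car15* was likewise 2.75 RPKM with DMSO, below the nB mean of 5.55 (log2 -0.95), and 4.66 with GSK343, overlapping nB (log2 -0.24). *Ptpn22* overlapped nB with DMSO (log2 0.08) and lay above it with GSK343 (log2 0.38). Over all genes 43.1% were called higher and 36.3% lower. The *Lat2* and *Ptpn22* calls were lost without the third nB library (adjusted p = 0.0746 and 0.0555), when nB is represented by a single sample whose spread is assumed to equal that of the other groups.

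Between nB and Pb, *Arhgef18* fell by 4.90 on the log2 scale (SE 0.099, adjusted p = 2.43e-13) and *Bank1* fell 18.4-fold (log2 -4.20, SE 0.14, adjusted p = 1.49e-11). *Lat2* fell 3.83-fold, *Il17ra* 2.13-fold and *Cisd3* 1.28-fold. *Ptpn22* rose 1.80-fold, *Camkk1* 1.59-fold and *Car15* 1.24-fold, the last with an adjusted p of 0.00473 that became 0.128 without the third nB library. *Samsn1* had a log2 difference of -0.03 (SE 0.082, adjusted p = 0.744), the mean of a DMSO group below nB (log2 -0.42) and a GSK343 group above it (log2 0.36). In this comparison 40.6% of genes were called higher and 42.1% lower. Because nB cells were neither cultured nor sorted by the same markers, and held the myeloid and T cell transcripts given above, culture and differentiation cannot be told apart in either comparison with nB.

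**Figure D3:**
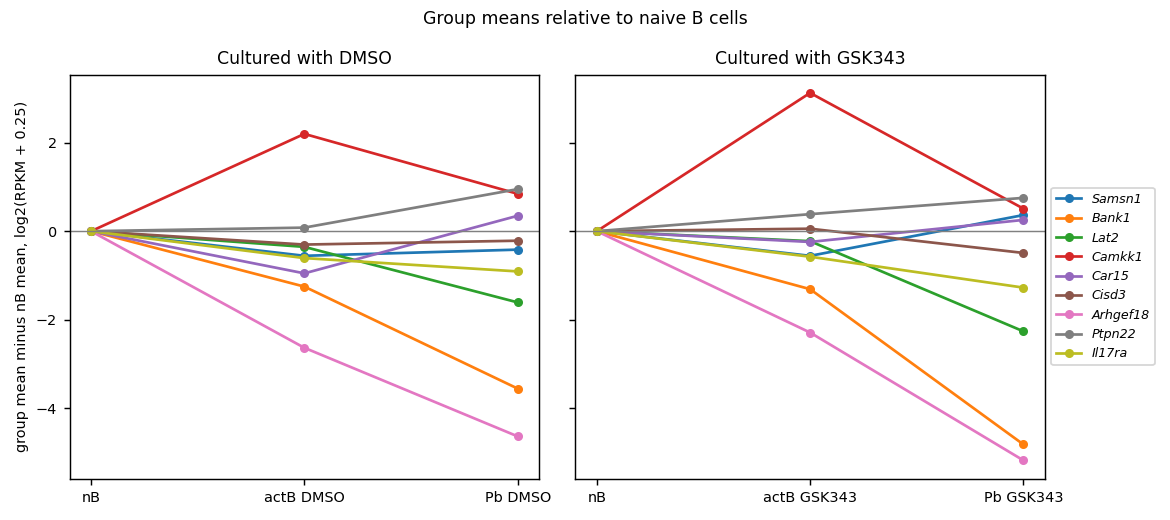
Log2 of the group mean RPKM plus 0.25, relative to that of nB (y axis), for nB, actB and Pb (x axis), drawn separately for cells cultured with DMSO (left) and with GSK343 (right), each line a gene. *Arhgef18* and *Bank1* descend at both steps under either treatment, *Camkk1* peaks in actB, and *Ptpn22* is highest in Pb.

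Over the 14 libraries the genes fell into patterns that follow the groups. The levels of *Bank1* and *Lat2* moved together (Pearson r = 0.99 on log2 values), as did *Arhgef18* and *Il17ra* (0.97), while *Ptpn22* ran opposite to *Bank1* (-0.86). These values describe libraries that share groups and carry no p. Of all genes tested, the transcript most like *Lat2* was *Pax5*, the transcription factor that maintains B cell identity (r = 0.993), which had 321.4 RPKM in nB, 192.1 and 177.3 in actB with DMSO and GSK343, and 29.1 and 13.8 in Pb. The nearest to *Bank1* was *Stat6*, which transmits IL4 receptor signals (0.994), and the nearest to *Arhgef18* was *Orai2*, a store-operated calcium channel (0.997). *Camkk1* was closest to *Fcgr2b*, the inhibitory Fc receptor (0.977), *Ptpn22* to *Slc3a1* (0.968), and *Il17ra* to *Rfx1* (0.984). *Car15* was closest to the transcriptional repressor *Gfi1* (0.949), *Samsn1* to *Pigs* (0.941) and *Cisd3* to *Rassf4* (0.881).

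The genes around these 9 were taken in 3 lists. The families list shares some genes with each of the other lists, and the main fit called none of the shared genes with GSK343. In the families of the 9 genes (related adaptors, CaM kinases, carbonic anhydrases, guanine nucleotide exchange factors, phosphatases and IL17 receptor chains), 29 of 40 genes passed the filter. None of the listed IL17 receptor chains passed it. The shares over all genes tested that each count is read against are the 8.2% higher and 2.16% lower in actB and 7.9% and 5% in Pb given above. Of these 29, 4 rose and 0 fell with GSK343 in actB and 3 rose and 1 fell in Pb, with median log2 changes of 0.09 and 0.01 against 0.03 and 0.00 for all genes tested. The related carbonic anhydrase *Car2* rose in both cell types, from 8.91 ± 2.18 to 14.2 ± 0.505 RPKM in actB (adjusted p = 0.0399) and from 2.71 ± 0.170 to 7.35 ± 0.177 in Pb (SD, n = 3, limma adjusted p = 0.000967). *Car5b*, a mitochondrial form, rose by a log2 of 0.94 in actB and 0.93 in Pb, *Car13* rose in Pb by 0.50 (0.12 in actB, adjusted p = 0.344), and the exchange factor *Arhgef2* rose in actB by 0.26 (0.07 in Pb, adjusted p = 0.47). At an unadjusted p under 0.05, 2 genes were lower in actB, and edgeR called 0. The number called in actB was 2 under quantile normalization, and 7 in each cell type without the second libraries.

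Among 33 genes that carry antigen receptor signals forward, all tested, 5 rose and 0 fell in actB, whereas 5 rose and 8 fell in Pb, with medians of 0.02 and -0.04. The B cell genes *Pax5* and *Ms4a1* were also lower with GSK343 in Pb, by log2 changes of -1.11 and -0.63, and *Cr2*, a member of this list, is 1 of the 6 B cell genes summed above. The part of that fall in the 8 was not tested. *Fyn*, a Src family kinase, rose from 20.9 ± 0.842 to 36.1 ± 3.30 RPKM in Pb (log2 0.78, adjusted p = 0.000126) and also in actB, by 0.43 (adjusted p = 0.00361). *Prkcb*, the protein kinase C that activates NF-kB, fell in Pb by 0.53 (adjusted p = 0.000824), and *Itpr3*, an IP3-gated calcium channel, from 36.2 ± 2.19 to 25.8 ± 2.31 (adjusted p = 0.00103). The complement receptor *Cr2* fell in Pb by 0.68 (adjusted p = 0.00149). The 3 had log2 changes of -0.24, -0.23 and -0.29 in actB, with adjusted p of 0.0565, 0.0513 and 0.0918. In actB, 4 genes were lower at an unadjusted p under 0.05 and edgeR called 3 of the list lower. The Pb count of 13 was 8 without the third Pb GSK343 library, and the actB count was 9 without the second libraries.

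Of 25 tested genes that damp the receptor signal, from a list of 26, 4 rose and 0 fell in actB and 2 rose and 1 fell in Pb, with medians of 0.13 and -0.02. The phosphatase *Ubash3b* rose in actB from 6.53 ± 0.562 to 12.3 ± 0.737 RPKM (adjusted p = 0.000963) and in Pb from 1.28 ± 0.212 to 2.15 ± 0.369 (adjusted p = 0.00497). *Fcgr2b* rose in actB from 138.3 to 173.3 RPKM (log2 0.33, adjusted p = 0.0233) and had a log2 change of -0.17 in Pb (adjusted p = 0.201). The inhibitory lectin *Siglecg* fell in Pb by 0.42 (adjusted p = 0.0114), with 0.13 in actB (adjusted p = 0.421). The other gene called higher in Pb, *Cd5*, passed the filter through nB alone (2.99 RPKM), and its Pb libraries held 1, 4 and 3 reads with DMSO and 16, 10 and 9 with GSK343, close to the floor of 3 reads, so that no change is read from it. In actB, 1 gene was lower at an unadjusted p under 0.05, and edgeR called 0 lower. The actB count for this list was 1 when the first or the third library of either treatment was left out, and in Pb it was 1 without the first and 5 without the second Pb GSK343 library. Without the second libraries of all cultured groups the counts were 9 and 10. With the replicate number as a block, 10 activating genes were called in actB and 8 inhibitory genes in Pb. In none of the lists was the difference of the GSK343 effects between Pb and actB called for a gene in limma or edgeR (6, 12 and 5 genes of the 3 lists had an unadjusted limma p under 0.05), so the counts in actB and Pb are not shown to differ.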

How the data were processed

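The authors aligned the reads to mm9 with TopHat2, counted reads over exons with GenomicRanges, and deposited a table in reads per 1000000 reads (RPM) for 15 columns. Use of strand in counting is not given in the sources used here. RPKM was obtained by dividing the deposited RPM by the exon length in the table. Dividing by the value of 1 read gave whole reads for 100% of values, within 0.0015 RPM. The 92 rows with no symbol (at most 0.09% of reads) were left out. Genes with RPKM of at least 1 in at least 3 columns were kept. log2(RPKM + 0.25) was fitted over all groups with limma 3.58.1 in R 4.3.3 (eBayes with trend, 9 residual degrees of freedom) and Benjamini-Hochberg adjustment over all genes tested, and a gene was called at an adjusted p under 0.05. Fold changes on this scale understate those of low genes. The script was tested on simulated data. Libraries with the same replicate number deviated together (r = 0.158 to 0.713 over 18 pairs, against -0.603 to 0.37 over 36 pairs with different numbers), so the replicate number was added as a block in an alternative fit. Other alternatives changed the pseudocount, the filter and the scaling, left out each library, and used edgeR 4.0.16 on whole reads. An alternative without the second library of every cultured group was chosen after seeing the data. Named genes were the 9 genes, their annotated overlaps, the 1 gene most alike by Pearson r, the genes beside the threshold, and up to 4 called genes per list by smallest adjusted p. The 9 genes and the lists were chosen with earlier results of these data known.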

Additional observations from a re-analysis of the deposited data

Results flagged for a closer look

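Of the 9 genes, 6 had GSK343 effects of opposite direction in actB and in Pb in all 3 library pairs of the same replicate number: *Lat2* (difference of the log2 effects, Pb minus actB, -0.794), *Camkk1* (-1.26), *Car15* (-0.801), *Cisd3* (-0.636), *Arhgef18* (-0.888) and *Ptpn22* (-0.501). These differences chose the genes and were not tested again. In *Car15* the Pb pairs ran from -0.23 to -0.0048, so that its opposite direction rests on small Pb values. That of *Lat2* rests on small actB values, with pairs from 0.090 to 0.183 and a fitted effect of 0.129 (SE 0.086). The third *Camkk1* pair in Pb was also small, at -0.076.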

How the results depend on the processing

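The differences of the 9 genes were recomputed 207 times, and 198 values stayed within the spread between replicates, 9 moved beyond it and 0 changed sign. Changing the filter, adding the replicate block or leaving out an nB sample cannot alter these estimates. Values from those settings are among the 198 and show no stability. A stable direction is fixed in part by the choice of the genes, and the call of each gene's own difference held in 2 to 5 of the 14 fits with a library left out and in 6 to 8 of the 8 other settings. The number of genes with a called difference, 28, was 18 under quantile normalization, 83 with the replicate block and 146 without the second library of every cultured group. Leaving out 1 library gave 0 to 58 genes: 0 without the first or the third actB DMSO library, the third actB GSK343, the third Pb DMSO or the third Pb GSK343 library (758 to 907 genes at an unadjusted p under 0.05), 58 without the second Pb GSK343 library, 13 without the second actB DMSO library, 4 without 1 or other of the nB samples, and 1 or 2 without the first actB GSK343, Pb DMSO or Pb GSK343 or the second Pb DMSO library. The cause was not tested. Of the 9 genes, those called higher in actB than in nB numbered 1 or 2 when a library was left out. For the families list, 2 genes were called in actB under quantile normalization, and 7 in actB and 7 in Pb without the second libraries. For the activating list, 10 were called in actB with the replicate block and 9 without the second libraries, and 8 to 15 in Pb with 1 library left out, 8 without the third Pb GSK343 library. For the inhibitory list, left-out libraries gave 1 to 5 in both cell types, the block gave 8 in Pb, and leaving out the second libraries gave 9 in actB and 10 in Pb. The block changed none of the other counts by over 1.5 times, and was not possible for contrasts with nB. With 2 nB samples, small differences from nB were weakly resolved.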
